A study of Rhinolophus ferrumequinum with 8 samples.

Results

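The STEAP genes encode a small family of haem-containing membrane proteins. They move electrons from the cytosol across a membrane, to metal ions outside the cell or inside an endosome. All 4 family members, STEAP1, STEAP2, STEAP3 and STEAP4, were found by name among the 19652 genes of the deposited table, and all 4 passed the filter on low values that left 13542 genes for testing. The family was selected on the levels of STEAP1 and STEAP2, which had been seen to be higher in the November libraries than in the summer libraries, so their levels against summer are given below as a description without a test. STEAP3 and STEAP4 were taken by family name. Their differences from summer, and all differences among the November states, were not used in the choice.

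RNA was sequenced from entire spleens of wild female bats of a hibernating species, the greater horseshoe bat (Rhinolophus ferrumequinum), in 8 libraries of 4 states with 2 biological replicates each. Torpor bats (cold and with slowed metabolism), arousal bats (2 h after capture) and winter active bats (26 h after capture) were sampled in November, and summer active bats in July. State and month coincide, so season cannot be told apart from anything else that differed between the July and November bats; no ages were used here. A library is named by state and replicate, as in torpor 1. Levels are rescaled TPM, a measure per transcript length, so that levels of different genes can be set side by side. The number of reads behind each value is unknown.

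In human and mouse cells, STEAP2, STEAP3 and STEAP4 reduce ferric iron and cupric copper with electrons from NADPH, which prepares the metal for import by carriers such as SLC11A2. STEAP1 lacks the NADPH-binding domain of the others and is thought to work in complexes with them. In mice, STEAP3 is the main ferric reductase of the transferrin endosome in developing red cells, and STEAP4 is known from adipose tissue, liver and macrophages, where inflammatory signals induce it. The spleen matters to iron because its macrophages engulf worn red cells and return their iron to the blood.

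Markers of spleen were present in every library: the splenic macrophage regulator SPIC stood between 144 and 939, the complement gene C1QA between 1488 and 7835 and the B-cell receptor chain CD79A between 184 and 1071. The libraries also differed in transcripts of other cells. The summed level of 9 erythroid markers was 21.5 to 140 in the 6 November libraries and 4056 and 5670 in the summer libraries. The summed level of 8 hepatocyte markers was 17868 in arousal 2, 2405 in summer active 1 and 49.3 to 1034 elsewhere. The summed level of 7 adipocyte markers was 361 in arousal 2, 339 in winter active 2 and 67.0 to 118 in the other November libraries, against 29.4 and 24.8 in summer active libraries. That of 5 pancreatic acinar markers (of an organ beside the spleen) was 1334 and 324 in torpor, 34.8 and 697 in arousal, 21.8 and 95.4 in winter active, and 15.0 and 12.5 in summer active libraries. In whole tissue, fewer cells of a type and less RNA per cell cannot be told apart. No replicate pair held identical values.

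The summed level of the 4 STEAP genes was 73.6 ± 12.0 in torpor, 111 ± 25.7 in arousal, 82.8 ± 0.751 in winter active and 28.7 ± 2.42 in summer active spleens (mean ± SD, n = 2 libraries each, as for all such values below). The lowest November library, torpor 1 at 65.1, lay above the higher summer library at 30.4. The sum includes the 2 genes chosen for being higher in November and is a description. The make-up of the sum differed between states. STEAP1 made up 58.0% and 69.8% of it in torpor, 35.6% and 33.0% in arousal, 54.6% and 31.2% in winter active, and 25.3% and 26.9% in summer active libraries. STEAP3 made up 10.1% and 13.8% in torpor, 11.3% and 3.37% in arousal, 15.1% and 26.0% in winter active, and 32.3% and 59.5% in summer active libraries. STEAP1 was thus the most abundant member in both torpor libraries, and STEAP3 in both summer libraries. As STEAP1 and STEAP2 were chosen for being higher in November, the larger share of STEAP3 in summer follows in part from that choice. The shares are a description too.

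**Figure D1:**
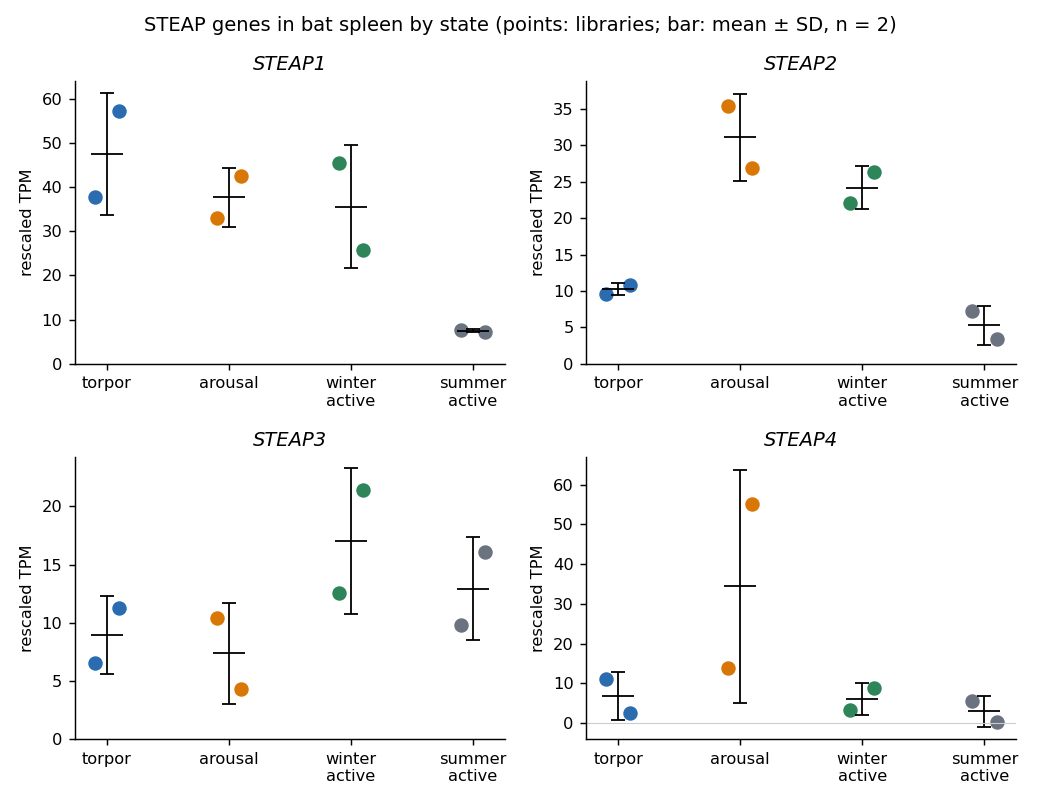
Rescaled TPM (y axis) of STEAP1, STEAP2, STEAP3 and STEAP4 in the spleen by state (x axis). Points are libraries and bars the mean ± SD of 2 libraries; the summer points of STEAP1 and STEAP2 lie below all their November points, while both summer points of STEAP3 and 1 of the 2 of STEAP4 fall among them, the other STEAP4 point (0.263, summer active 2) lying below.

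STEAP1 (NCBI gene 117012463), the member without an NADPH-binding domain, was high in all 3 November states, with overlapping libraries. It stood at 37.8 and 57.3 in torpor, 33.0 and 42.5 in arousal, 45.5 and 25.7 in winter active, and 7.69 and 7.27 in summer active libraries. The 6 November libraries overlapped from state to state and none came near the summer pair. The order of the means was torpor (47.5 ± 13.8), arousal (37.7 ± 6.70), winter active (35.6 ± 14.0) and summer active (7.48 ± 0.295), and neighbours among the November states did not differ beyond their spread. On the log2(value + 1) scale, which understates changes of low genes, the differences from summer that chose the gene were 2.49 for torpor, 2.18 for arousal and 2.06 for winter active. These 3 comparisons share the same summer libraries. In level, STEAP1 exceeded 75.4% and 83.1% of the genes tested in the torpor libraries, and 36.4% and 34.1% in the summer active libraries.

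Within November, STEAP1 showed no call. It differed by -0.31 between arousal and torpor (95% interval -1.07 to 0.45), by -0.43 between winter active and torpor (-1.19 to 0.33) and by -0.13 between winter active and arousal (-0.89 to 0.63), with adjusted p = 0.616, 0.579 and 0.957 by limma over all genes tested. The sign turned in arousal against torpor when each column was rescaled to a total of 1000000 (0.064), and in winter active against arousal without arousal 2 (0.052) or without winter active 2 (0.27).

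STEAP2 (NCBI gene 117012462), an iron and copper reductase, followed another order. It stood at 9.64 and 10.8 in torpor, 35.3 and 26.8 in arousal, 22.1 and 26.3 in winter active, and 7.20 and 3.41 in summer active libraries. Torpor lay close above summer, and both later November states lay well above torpor with no overlap. The means were highest in arousal (31.1 ± 6.02), then winter active (24.2 ± 2.95), torpor (10.2 ± 0.852) and summer active (5.31 ± 2.69). The libraries of arousal and winter active were barely apart. The differences from summer that chose the gene were 0.90 for torpor, 2.40 for arousal and 2.06 for winter active on the log2(value + 1) scale, again over shared summer libraries.

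The comparisons of STEAP2 within November were not used in that choice, although the same November libraries entered it. STEAP2 averaged 31.1 in arousal and 10.2 in torpor spleens, a log2 difference of 1.50 (SE 0.32, 95% interval 0.74 to 2.26), which corresponds to 2.83-fold on that scale. It did not pass over all genes (limma adjusted p = 0.143), where no gene at all passed in this comparison. It averaged 24.2 in winter active and 10.2 in torpor spleens, a log2 difference of 1.16 (SE 0.32, interval 0.40 to 1.92, limma adjusted p = 0.292). Winter active and arousal differed by -0.34 (interval -1.10 to 0.42, adjusted p = 0.866). Across the fits that left out 1 library, the arousal difference lay between 1.31 and 1.70 and the winter active difference between 1.04 and 1.28, with no adjusted p below 0.168 and 0.252. With columns rescaled to 1000000, the arousal difference passed (1.87, adjusted p = 0.0456), while the median of all genes moved from 0.11 to 0.45 and 445 genes passed. Relative to that median, STEAP2 differed by 1.43.

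STEAP1 and STEAP2 therefore stood in different proportions in different states, although the rule took both as higher in November. The level of STEAP2 divided by that of STEAP1 was 0.255 and 0.189 in torpor, 1.07 and 0.632 in arousal, 0.486 and 1.02 in winter active, and 0.937 and 0.469 in summer active libraries. Both torpor ratios were below the other 6. This ratio was singled out after its values were seen and carries no test.

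**Figure D2:**
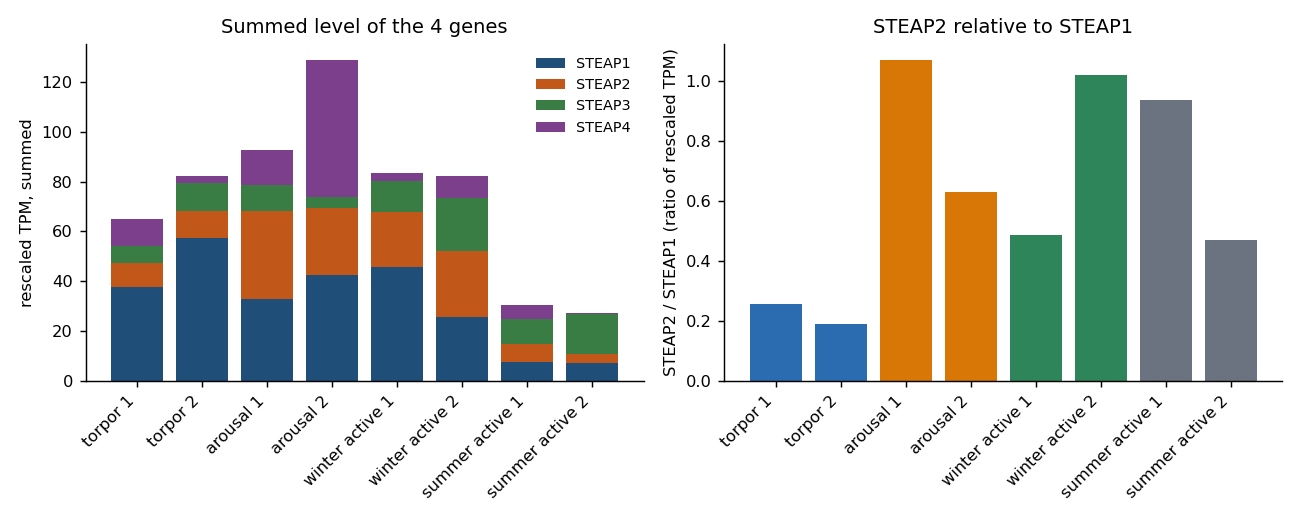
Left, summed rescaled TPM (y axis) of the 4 STEAP genes in each library (x axis), with each gene's part in its own colour. Right, the ratio of STEAP2 to STEAP1 in the same libraries, which was 0.255 and 0.189 in torpor and at least 0.469 in the 6 others.

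STEAP3 (NCBI gene 117025955), the ferric reductase of the transferrin endosome, showed no difference from summer beyond the spread of its libraries. It stood at 6.56 and 11.3 in torpor, 10.4 and 4.34 in arousal, 12.6 and 21.4 in winter active, and 9.84 and 16.1 in summer active libraries. Each November state overlapped the summer pair, and arousal 2 was the lowest library. The means were 16.99 ± 6.26 in winter active, 12.9 ± 4.40 in summer active, 8.93 ± 3.35 in torpor and 7.39 ± 4.32 in arousal spleens. Neighbours in this order did not differ beyond their spread, although both winter active libraries lay above both torpor and both arousal libraries.

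Against summer, STEAP3 differed by -0.50 in torpor (95% interval -1.59 to 0.60), by -0.80 in arousal (-1.90 to 0.30) and by 0.36 in winter active spleens (-0.74 to 1.46), with limma adjusted p = 0.635, 0.292 and 0.738. Erythroid markers, of the cells in which mouse STEAP3 is best known, stood at a summed level of at most 140 in November against at least 4056 in summer. STEAP3 in the 8 libraries spanned 4.34 to 21.4, and the part that these markers play in its level was not tested. Within November, winter active and arousal differed by 1.16 (SE 0.47, interval 0.060 to 2.26, adjusted p = 0.825), winter active and torpor by 0.86 (-0.24 to 1.95, adjusted p = 0.455) and arousal and torpor by -0.30 (-1.40 to 0.80, adjusted p = 0.744), all by limma. Across the fits that left out 1 library, the difference between winter active and arousal lay between 0.61 and 1.71. The sign of arousal against torpor turned without torpor 2 (0.049), without arousal 2 (0.25) and after rescaling of columns (0.032), and that of winter active against summer without winter active 2 (-0.0034).

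STEAP4 (NCBI gene 117012452), the member known from fat, liver and inflamed tissue, varied most between replicates. It stood at 11.1 and 2.66 in torpor, 13.8 and 55.2 in arousal, 3.21 and 8.92 in winter active, and 5.69 and 0.263 in summer active libraries. Both arousal libraries lay above the other 6, and the remaining states overlapped. The higher replicate was 4.19 times the lower in torpor, 4.01 times in arousal, 2.78 times in winter active and 21.6 times in summer active. The order of the means was arousal (34.5 ± 29.3), torpor (6.90 ± 5.99), winter active (6.06 ± 4.03) and summer active (2.98 ± 3.84), and the last 3 did not differ beyond their spread.

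Arousal against summer gave the largest STEAP4 difference, 3.31 on the log2(value + 1) scale (SE 1.00, 95% interval 0.96 to 5.66, limma adjusted p = 0.0874), which did not pass. It was 2.11 without summer active 2, 2.34 without arousal 2, 4.27 without arousal 1 and 4.51 without summer active 1. It passed with columns rescaled to 1000000 (3.87, adjusted p = 0.0178), where the median of all genes was 0.76 and 6099 genes passed. Relative to that median it was 3.11. Torpor differed from summer by 1.20 (interval -1.15 to 3.55, adjusted p = 0.596) and winter active by 1.15 (-1.20 to 3.50, adjusted p = 0.601). Both values rested on summer active 2: without it they were -0.0061 and -0.050. Within November, STEAP4 differed by 2.11 between arousal and torpor (-0.24 to 4.46, adjusted p = 0.287), by -2.16 between winter active and arousal (-4.51 to 0.19, adjusted p = 0.825) and by -0.044 between winter active and torpor (-2.39 to 2.31, adjusted p = 0.989), by limma throughout. Leaving out 1 library moved arousal against torpor between 1.15 (without arousal 2) and 3.08 (without arousal 1), and winter active against arousal between -3.12 (without arousal 1) and -1.19 (without arousal 2). Winter active against torpor turned sign without torpor 1 (0.82), without winter active 1 (0.57) and after rescaling (0.11).

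Markers of liver and fat were high in the library highest in STEAP4, and less so in the next ones. Arousal 2, with STEAP4 at 55.2, held the highest summed hepatocyte markers (17868) and adipocyte markers (361), with albumin (ALB), the main hepatocyte product, at 12262 and the fat hormone gene ADIPOQ at 75.4. Winter active 2 had nearly as much adipocyte signal (339, ADIPOQ 81.4) and STEAP4 at 8.92. Arousal 1, next in STEAP4 at 13.8, had hepatocyte markers at 1034 and adipocyte markers at 67.0, the lowest of the November sums. Torpor 1, with STEAP4 at 11.1, had hepatocyte markers at 835 and adipocyte markers at 118, while summer active 1 had hepatocyte markers at 2405 and STEAP4 at 5.69. Of the listed hepatocyte and adipocyte markers, 8 of 8 and 7 of 8 were in the table, and none of those 7 adipocyte markers was at 0 in any library. Summed neutrophil markers peaked in torpor 1 (12262) and summed macrophage markers were lowest in summer active 2 (4606). The part of these cells in the STEAP4 values was not tested.

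**Figure D3:**
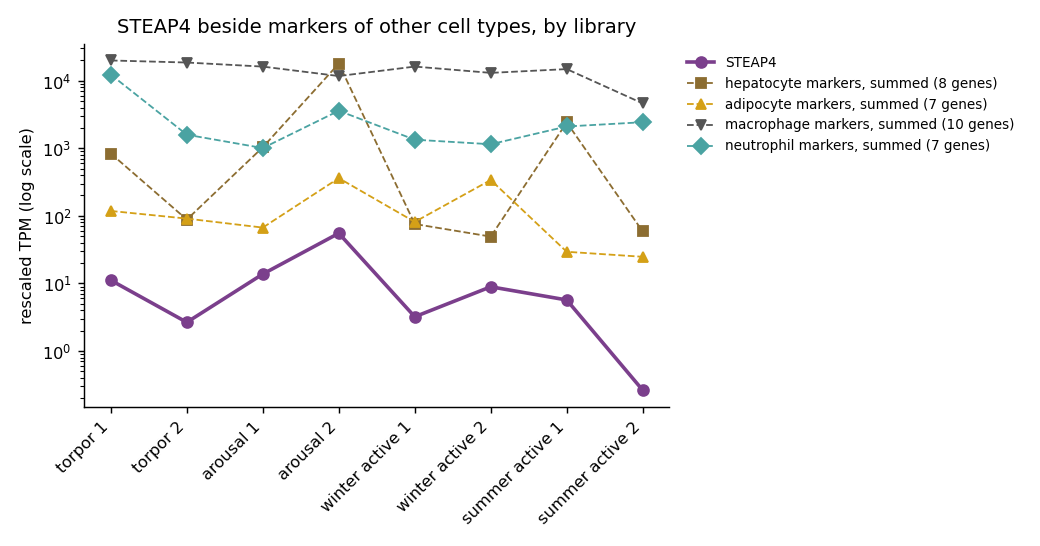
Rescaled TPM on a log scale (y axis) of STEAP4 and of the summed markers of 4 other cell types in each library (x axis); lines only link the points of one measure. STEAP4 and the hepatocyte sum both peaked in arousal 2, at 55.2 and 17868.

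The macrophage sum was 11700 to 19892 in November, against 14828 and 4606 in the summer libraries 1 and 2. Of the 10 macrophage markers, 9, 9 and 10 were above summer in torpor, arousal and winter active. Their median log2 differences were 1.07, 0.66 and 0.90, and none passed. Of the 12 marker lists, 5 had sums that did not overlap between the November and the summer libraries. The share of all genes without such overlap was not counted, so nothing is read from that number. The adipocyte and pancreatic acinar sums, given above, were higher in all 6 November libraries. So were STEAP1 and STEAP2, which were chosen for being higher in November. All 7 adipocyte and all 5 acinar markers had positive differences in each of the 3 comparisons with summer. Of these, the lipid droplet gene PLIN1 passed in arousal (3.35, limma adjusted p = 0.0442) and no other did. The sums of the erythroid, B-cell (542 to 1117 in November against 2340 and 2736 in summer) and T-cell markers (73.6 to 140 against 157 and 192) were lower in all 6. The part of these shifts in the STEAP1 and STEAP2 values was not tested.

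Counts over the 4 members are set beside the share of all genes that met the same criterion. The libraries of the compared states did not overlap for 2 of 4 members in torpor against summer (46.5% of all genes tested), 3 of 4 in arousal against summer (57.3%), 2 of 4 in winter active against summer (49.1%), 2 of 4 in arousal against torpor (54.1%), 2 of 4 in winter active against torpor (50.9%) and 3 of 4 in winter active against arousal (39.4%). Against summer the choice of STEAP1 and STEAP2 fixed 2 of these members, so nothing is read from those counts. In winter active against arousal, STEAP2 and STEAP4 were lower and STEAP3 higher in both libraries. STEAP2 was barely apart there, at 26.3 in winter active 2 and 26.8 in arousal 2. With only 4 members, nothing is read from the counts within November either. With limma at an adjusted p under 0.05, 0.561%, 5.52% and 1.03% of all genes passed for torpor, arousal and winter active against summer, and neither STEAP3 nor STEAP4 was among them. Of all genes, 0% passed in each of the 3 comparisons within November, where 2666, 1787 and 738 genes had an unadjusted p under 0.05 for arousal over torpor, winter active over torpor and winter active over arousal. STEAP2 was one of them in the first and second, and STEAP3 in the third.

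**Figure D4:**
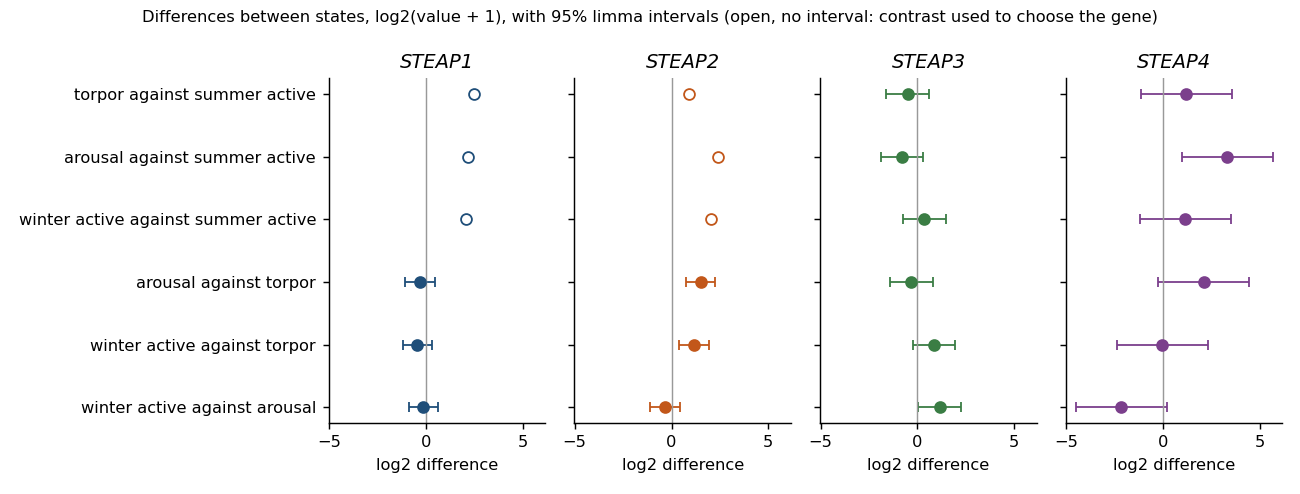
Log2 differences between states on the log2(value + 1) scale (x axis) for the 6 comparisons (y axis) of each STEAP gene, with 95% limma intervals. Open points without an interval are the contrasts that chose STEAP1 and STEAP2. Among the other intervals, 4 lie above 0 before any adjustment. Both of STEAP2 against torpor do so (0.74 to 2.26 in arousal and 0.40 to 1.92 in winter active). So do STEAP3 in winter active against arousal (0.060 to 2.26) and STEAP4 in arousal against summer (0.96 to 5.66). Of all 13542 genes tested, 2666, 1787, 738 and 3920 had an unadjusted limma p under 0.05, in either direction, in these 4 comparisons in turn.

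The genes around STEAP proteins were followed in lists of 79 genes in all, of which 66 were in the table and 59 were tested. The lists covered iron and copper handling, related reductases and oxidases, and genes induced by p53 or responsive to TNF, IL1 and IL6. In torpor against summer 1 of these 59 passed (1.69%), in arousal against summer 3 (5.08%), in winter active against summer 1 (1.69%), and within November 0 in all 3 comparisons. All genes tested passed at 0.561%, 5.52% and 1.03% against summer, as given above. The gene called in all 3 summer comparisons was SLC25A37, mitoferrin, which imports iron into mitochondria of developing red cells. It stood at 23.3 and 18.03 in torpor, 13.6 and 13.0 in arousal, 16.4 and 10.3 in winter active, and 176 and 205 in summer active libraries. It fell by 3.15, 3.74 and 3.77 on the log2 scale (limma adjusted p = 0.0048, 0.00161 and 0.00236), and the torpor call was lost without torpor 2. The 9 erythroid markers had median differences from summer of -4.47, -4.92 and -4.42 in torpor, arousal and winter active. The part of red cell precursors in the SLC25A37 values was not tested.

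TFRC, the transferrin receptor whose endosomal iron STEAP3 reduces in mouse erythroid cells, was lower in November by its values. It stood at 15.4 and 12.4 in torpor, 16.0 and 18.9 in arousal, 12.6 and 15.4 in winter active, and 43.7 and 112 in summer active libraries. It fell in arousal (-1.95, limma adjusted p = 0.0442), a call lost in 7 of the 8 fits without 1 library (adjusted p = 0.0701 to 0.166), all but that without summer active 1, and the difference was -1.28 without summer active 2. Torpor and winter active differed from summer by -2.26 and -2.25 and did not pass (adjusted p = 0.0735 and 0.065), although both passed without summer active 1 (adjusted p = 0.00555 and 0.0054). STEAP3 did not share this order, as its summer libraries lay within the November range. TFRC was also on the erythroid marker list.

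In the iron list, 27 of 30 genes were tested and SLC25A37 and TFRC were the ones called. The median log2 difference of the iron list from summer was -0.0080 in torpor, 0.12 in arousal and 0.23 in winter active, beside -0.055, 0.083 and 0.046 for all genes tested. The endosomal iron carrier SLC11A2, which takes up the iron that STEAP proteins reduce, stood at 9.15 and 14.5 in torpor, 18.5 and 21.2 in arousal, 12.7 and 20.9 in winter active, and 8.17 and 10.8 in summer active libraries. Its differences from summer of 0.27, 1.00 and 0.74 did not pass (limma adjusted p = 0.717, 0.098 and 0.345). The iron exporter ferroportin (SLC40A1) stood at 536 and 1017 in torpor, 949 and 596 in arousal, 739 and 746 in winter active, and 533 and 316 in summer active libraries, with adjusted p = 0.352, 0.194 and 0.37 against summer. The haem-degrading enzyme HMOX1 ranged from 952 to 2886 in November and stood at 1408 and 393 in summer, with adjusted p = 0.387, 0.298 and 0.573.

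Of the 12 copper genes listed, 8 were tested, and 1 passed, in arousal against summer: MTF1, a metal-responsive transcription factor. MTF1 stood at 3.89 in both torpor libraries, 12.3 and 8.91 in arousal, 5.91 and 7.59 in winter active, and 3.71 and 2.80 in summer active libraries. It rose in arousal by 1.44 (limma adjusted p = 0.0344), a call lost without either torpor, either arousal or either winter active library and without summer active 2 (adjusted p = 0.0605 to 0.149). The copper importer SLC31A1, which carries reduced copper, stood at 171 and 178 in torpor, 301 and 224 in arousal, 166 and 119 in winter active, and 196 and 68.5 in summer active libraries, and its differences from summer of 0.59, 1.15 and 0.28 did not pass (adjusted p = 0.568, 0.149 and 0.794).

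Among other reductases, FRRS1, a ferric-chelate reductase, was the 1 tested gene of the 6 listed and varied little, between 6.95 and 9.37 in November and at 8.37 and 6.18 in summer. Its smallest adjusted p against summer was 0.422. The NADPH oxidases share a membrane domain with the STEAP proteins. The 5 of 7 in the table (NOX1, NOX3, NOX4, DUOX1 and DUOX2) did not reach a mean of 1 and were not tested, with DUOX2 at most 3.88, in summer active 2. CYBRD1 and CYBB were not found under these names in the deposited table and so were not analysed.

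STEAP3 is induced by p53 and STEAP4 by TNF and IL6 in human or mouse cells, so lists of such inducible genes were set beside them. None of 12 p53-induced genes passed in any comparison. Their median difference from summer was -0.21 in torpor, -0.16 in arousal and -0.21 in winter active, with 7, 8 and 7 of the 12 below 0. None of the 11 tested TNF, IL1 and IL6 responsive genes passed either. Their median difference from summer was 0.14 in torpor, 1.05 in arousal and 0.93 in winter active, against -0.055, 0.083 and 0.046 for all genes. Of the 11 genes, 6, 9 and 10 were above summer in torpor, arousal and winter active. NFKBIA was below summer in all 3 (-0.68, -0.45 and -0.10) and TNFAIP3 lay near summer (-0.11, -0.058 and 0.054). By mean, IL1B was highest in torpor, at 210 and 27.6. NFKBIZ, an inducible regulator of inflammatory genes, stood at 53.1 and 52.9 in torpor, 138 and 97.5 in arousal, 86.5 and 103 in winter active, and 55.5 and 24.2 in summer active libraries (adjusted p = 0.051 for arousal against summer). TNF stood at 4.35 and 1.09 in torpor, 2.52 and 1.80 in arousal, 7.56 and 9.75 in winter active, and 0.834 and 2.28 in summer active libraries. IL6 stood at 8.23 and 3.42 in torpor, 10.8 and 4.57 in arousal, 4.99 and 5.38 in winter active, and 1.93 and 1.72 in summer active libraries. By mean, TNF was thus highest in winter active and IL6, like STEAP4, in arousal spleens, where its 2 libraries overlapped those of torpor and winter active. The part of either in the STEAP4 values was not tested.

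In the RefSeq annotation of assembly mRhiFer1_v1.p, STEAP2 and STEAP1 are next to each other among protein-coding genes, and STEAP4 lies on the same chromosome with 3 protein-coding genes between. STEAP3 lies on another chromosome. The genes between STEAP1 and STEAP4 were at or near 0, with ZNF804B and TEX47 listed at 0 in all 8 libraries. On the STEAP2 side, the nearest gene, CFAP69, known from sperm flagella, stood at 5.14 and 13.7 in torpor, 8.77 and 11.8 in arousal, 25.8 and 12.9 in winter active, and 3.61 and 2.80 in summer active libraries. All 6 November values lay above both summer values, as for STEAP1 and STEAP2, which were chosen for being higher in November. The share of all genes with that pattern over all 8 libraries was not counted. State by state, 2769, 4327 and 3689 of the 13542 genes tested lay above summer without overlap in torpor, arousal and winter active. The differences of CFAP69 from summer of 1.18, 1.42 and 2.20 did not pass (limma adjusted p = 0.289, 0.107 and 0.107). The arousal and winter active differences passed after rescaling of columns (2.06 and 2.66, limma adjusted p = 0.0126 and 0.0434). The medians of all genes were then 0.76 and 0.55, and 6099 and 779 of the 13542 genes passed.

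Next along, the mitochondrial GTPase GTPBP10 stood at 6.35 and 4.36 in torpor and 5.73 and 6.19 in summer active libraries, with higher values in arousal (7.65 and 10.7) and winter active (9.03 and 9.42). The claudin gene CLDN12, a tight junction protein, stood at 2.35 and 2.98 in torpor, 7.96 and 5.50 in arousal, 2.85 and 6.41 in winter active, and 1.59 and 2.12 in summer active libraries. On the STEAP4 side, SRI, a calcium-binding protein, was highest in torpor (251 and 186, against 152 and 116 in summer), ADAM22 stayed at or below 4.66 and the kinase regulator DBF4 at or below 12.0. None of these flanking genes had an adjusted p under 0.05 in any of the 6 comparisons. Around STEAP3, the macrophage receptor MARCO stood at 143 and 179 in torpor, 128 and 76.9 in arousal, 238 and 158 in winter active, and 139 and 38.6 in summer active libraries. C8H2orf76, the acyl-CoA-binding DBI and TMEM37 were also expressed, EN1 and C1QL2 were at or near 0, and none passed.

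Likeness to each STEAP gene was measured over the 8 libraries as the root mean square distance between log2(value + 1) profiles, each centred on its own mean, among 9591 named genes with a mean of at least 5. It is a description, and all pairs share the same libraries. STEAP1 lay nearest to TIMP4, an inhibitor of matrix metalloproteinases (distance 0.42), STING1, the adaptor of cytosolic DNA sensing (0.45), and the methyltransferase METTL21A (0.45), against a median of 1.06 over the candidates. TIMP4 stood at 80.7 and 87.4 in torpor, 112 and 95.5 in arousal, 107 and 56.6 in winter active, and 36.1 and 19.2 in summer active libraries. STEAP2 lay at 0.83 from STEAP1, below that median of 1.06. TIMP4, STING1 and METTL21A were named for being nearest, so nothing is read from STEAP2 lying farther away than they did. STEAP1 and STEAP2 were both chosen for being higher in November, so a distance below the median follows in part from that choice.

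STEAP2 lay nearest to SAMD4A, an RNA-binding repressor of translation (0.26), PIK3C2A, a lipid kinase of membrane traffic (0.27), and the zinc finger gene ZNF366 (0.30), with a median of 1.00. PIK3C2A stood at 6.71 and 8.48 in torpor, 23.1 and 19.8 in arousal, 13.0 and 16.9 in winter active, and 6.49 and 3.99 in summer active libraries. The order of states was that of STEAP2, with torpor close above summer. PIK3C2A was named for its near profile, so nothing is read from the shared order. STEAP3 lay nearest to the primase subunit PRIM2 (0.26), ZNF579 (0.34) and the cyclophilin PPIC (0.35), with a median of 0.70, and STEAP4 to CIDEC, a lipid droplet protein of fat cells (0.75), SLC18A3, the vesicular acetylcholine transporter (0.83), and PPP1R3B, a glycogen-targeting phosphatase subunit known from liver (0.86), with a median of 1.52. CIDEC, also on the adipocyte marker list, stood at 31.9 in arousal 2 and 20.9 in winter active 2, and at most 6.97 in the other libraries. STEAP3 and STEAP4 were the members farthest from each other, at 1.98.

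**Figure D5:**
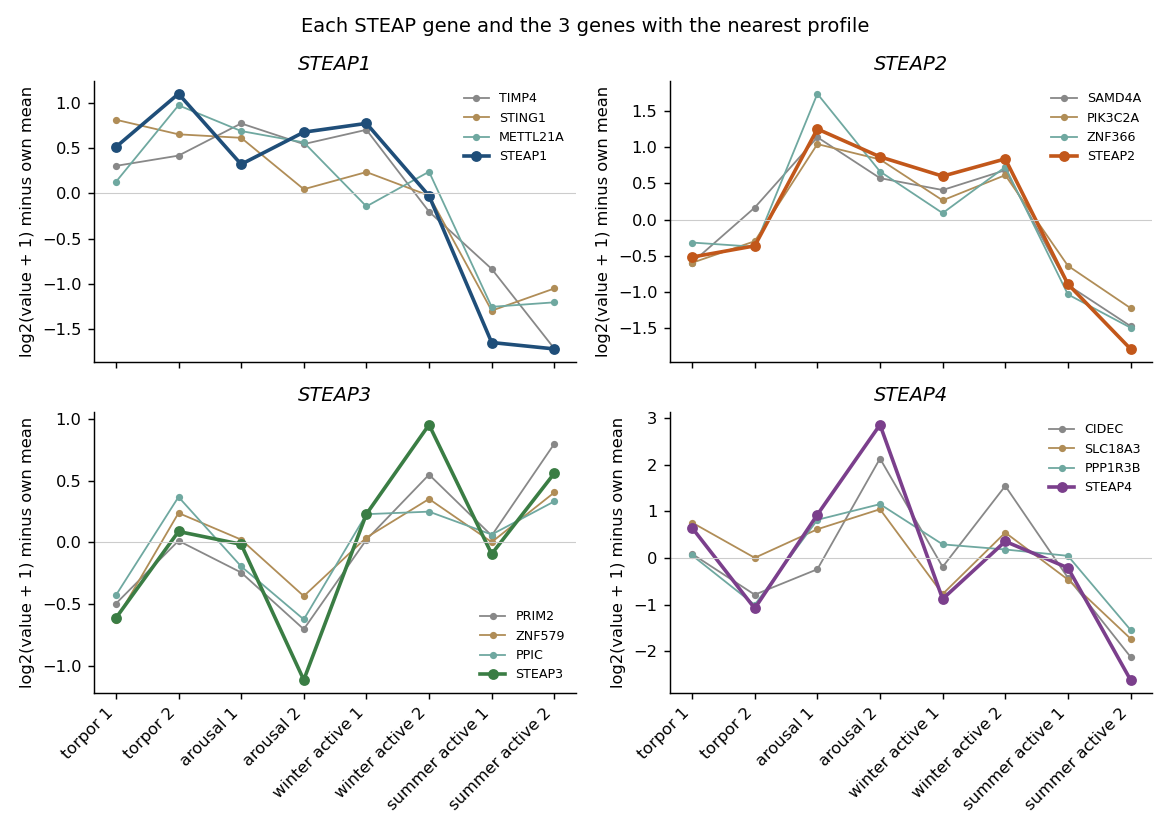
Centred log2(value + 1) profiles (y axis) of each STEAP gene (thick line) and its 3 nearest genes (thin lines) over the 8 libraries (x axis); lines only link the points of one gene. The nearest gene to STEAP2 lay at a distance of 0.26 and the nearest to STEAP4 at 0.75.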

How the data were processed

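Per the labels' protocols, spleen RNA went into standard Illumina libraries. Kallisto 0.46.2 and sleuth 0.30.0 are listed in the submitters' processing notes; the transcriptome, gene summing and rescaling are not stated there. The deposited table holds a rescaled TPM signal, with column totals of 745098 to 1331820, treated as comparable between libraries (TPM had been planned for). Depth is unknown, so no counting interval is given.

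All 19652 identifiers and names matched RefSeq assembly mRhiFer1_v1.p, used for names and gene order. Genes with a mean of at least 1 were fitted as log2(value + 1) by limma 3.58.1 (R 4.3.3; eBayes with a trend; 1 fit of all 8 libraries; 4 residual and 3.29 prior degrees of freedom), with Benjamini-Hochberg adjustment over 13542 genes. The script was tested on simulated data. Members and lists were chosen with earlier results of these data known. Genes named are the 4 members, their 3 nearest profiles, 3 flanking genes a side, list genes called and fixed metal carriers. Others (FRRS1, NFKBIZ, NFKBIA, TNFAIP3, IL1B, TNF, IL6, PLIN1, the oxidases and genes between members) were chosen after their values were seen. Alternatives changed the pseudocount (0.1), the filter (none, or a mean of 5), the scaling (totals of 1000000, or quantiles), added a replicate block, or used fewer libraries; a lone replicate is then assumed to vary like other states.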

Additional observations from a re-analysis of the deposited data

How the results depend on the processing

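With 2 libraries a state, the 95% limma interval reached 0.76 to each side of a log2 difference for STEAP1 and STEAP2, 1.10 for STEAP3 and 2.35 for STEAP4, and depth is unknown. Calls of STEAP members changed only with columns rescaled to 1000000, where STEAP4 in arousal against summer (3.87) and STEAP2 in arousal against torpor (1.87) passed. That rescaling turned STEAP1 (0.064) and STEAP3 (0.032) in arousal against torpor and STEAP4 in winter active against torpor (0.11), and moved STEAP1 in arousal against summer to 2.89. All-gene medians then moved to 0.29, 0.76 and 0.55 against summer, and 0.45, 0.24 and -0.22 within November.

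Without 1 library, values of both signs were seen for STEAP4 in torpor against summer (-0.0061 to 2.40), winter active against summer (-0.050 to 2.35) and winter active against torpor (-0.91 to 0.82), for STEAP3 in arousal against torpor (-0.85 to 0.25) and winter active against summer (-0.0034 to 0.72), and for STEAP1 in winter active against arousal (-0.53 to 0.27).

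Metal and inducer genes called in arousal against summer numbered 3, against 1 with no filter, 5 with a mean of at least 5, 25 after rescaling, 5 with the replicate block, 1 with only the 2 states compared and 1 to 7 without 1 library. Of all genes, 748 passed in this comparison in the main fit, 284 with no filter and 795 with a mean of at least 5. Those passing numbered 6099 after rescaling, 842 with the replicate block and 27 with only the 2 states compared. Rescaling gave 4 metal and inducer genes in winter active against summer and 3 in arousal against torpor, beside 779 and 445 of all genes. In these settings the list counts rose and fell with those of all genes, so nothing is read from the list counts. Without 1 library the counts were 0 to 2 in torpor against summer and 1 to 4 in winter active against summer. Replicate numbers are not stated to pair the libraries: deviations of same-numbered libraries correlated between -0.19 and 0.32 over genes, and the replicate block changed no call of a STEAP member. The causes of these changes were not tested.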
